A study of Mus musculus with 12 samples.

Results

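The non-clustered protocadherins were followed in SVR xenografts, tumors grown from a mouse angiosarcoma line. The 10 members were Pcdh1, Pcdh7, Pcdh8, Pcdh9, Pcdh10, Pcdh12, Pcdh17, Pcdh18, Pcdh19 and Pcdh20, each taken by its exact name from a table of 54232 genes. Pcdh19 had been picked because its counts rose with trametinib in these same tumors, and the other 9 were taken as its relatives. Its levels in all 4 groups were known when it was chosen, so its differences are given as descriptions, without p or FDR. Those of the other members for trametinib against control are given in the same way. Calls of these differences are counted beside all genes, and a call of Pcdh19 is not a test of it. SVR cells are C57BL/6 endothelial cells transformed with SV40 large T antigen and activated H-ras, and they were injected under the skin of athymic nude mice aged 8 to 12 weeks. From 3 to 7 days later the mice received daily gavage of vehicle (control), trametinib (1 mg/kg), cediranib (at 3 mg/kg) or both drugs together (combination) with 3 tumors per group. The labels give ulceration or a size over 1 cm as the endpoint, and which of the study's treatment experiments these tumors belong to was not given. Trametinib inhibits the kinase MEK and cediranib the VEGF receptors. As the SVR cells and their hosts are both mouse, reads of tumor, vessels and skin could not be separated, and time on treatment may differ between groups.

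Protocadherins are the most numerous branch of the cadherin superfamily. They are single-pass membrane proteins with a row of extracellular cadherin repeats, and they mediate weak adhesion between like molecules while passing signals to the cytoskeleton through their cytoplasmic tails. The clustered members are made from gene arrays in which each variable exon has its own promoter, whereas the non-clustered members are separate genes on several chromosomes. They are best known from the nervous system, where mutations of the X-linked PCDH19 cause an epilepsy that mainly affects females. Pcdh12, also called VE-cadherin-2, is a protocadherin of endothelial cells.

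Transcripts of the group came mostly from 6 of the 10 genes. Pcdh1, Pcdh7, Pcdh9, Pcdh12, Pcdh17 and Pcdh19 had counts in all 12 libraries and were among the 12897 genes that passed the filter on low counts (filterByExpr of edgeR). The remaining 4 did not pass. Pcdh12, with 199 counts over the 12 libraries, was the lowest member that passed, and Pcdh18, with 44 counts, was the highest that did not.

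In the annotated mouse genome (GRCm38, coordinates as deposited) Pcdh19 (ENSMUSG00000051323) lies on the minus strand at chrX:133582860-133688987 and has 6 coding exons, of which the largest holds 62.5% of the coding bases. Pcdh9 (ENSMUSG00000055421) lies on the minus strand at chr14:93013410-93890679, and Pcdh17 (ENSMUSG00000035566) on the plus strand at chr14:84443563-84539002. Pcdh7 (ENSMUSG00000029108) lies on the plus strand at chr5:57717967-58133230. In each of the 10 genes 1 exon holds most of the coding bases, from 62.5% in Pcdh19 to 95.4% in Pcdh20.

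The promoters of the following 3 genes are shown because Pcdh19 and Pcdh9 were the members called higher in the combination group, and Pcdh17 is a relative of similar promoter composition that was not called. Each run is the 250 bases before the RefSeq transcription start (GRCm38.p6), read 5′ to 3′ on the strand of the gene, with capitals marking a CCAAT box on either strand (CCAAT or ATTGG). The positions are chrX:133688994-133689243 (minus strand) for Pcdh19, chr14:93890680-93890929 (minus strand) for Pcdh9 and chr14:84443313-84443562 (plus strand) for Pcdh17.
Pcdh19: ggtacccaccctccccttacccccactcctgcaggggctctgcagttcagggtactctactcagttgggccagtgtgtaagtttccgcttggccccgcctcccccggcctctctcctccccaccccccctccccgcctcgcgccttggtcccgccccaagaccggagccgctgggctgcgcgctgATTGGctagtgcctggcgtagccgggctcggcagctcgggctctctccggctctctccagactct
Pcdh9: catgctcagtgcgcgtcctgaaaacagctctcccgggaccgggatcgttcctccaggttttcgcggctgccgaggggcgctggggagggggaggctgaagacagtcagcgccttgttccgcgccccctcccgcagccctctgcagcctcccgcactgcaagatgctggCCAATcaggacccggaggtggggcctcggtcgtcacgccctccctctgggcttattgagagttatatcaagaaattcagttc
Pcdh17: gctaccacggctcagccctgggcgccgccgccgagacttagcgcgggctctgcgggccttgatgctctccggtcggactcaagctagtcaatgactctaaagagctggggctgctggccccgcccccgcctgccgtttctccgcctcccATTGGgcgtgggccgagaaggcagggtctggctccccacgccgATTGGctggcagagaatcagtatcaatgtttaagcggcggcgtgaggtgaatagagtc

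These windows were rich in G and C, with 69.2% for Pcdh19, 63.6% for Pcdh9 and 64.8% for Pcdh17, against a median of 52.0% over 27025 mouse promoters of the same length. Promoters were found for 8 of the 10 members. A CCAAT box was present in 7 of these 8, Pcdh7 being the exception, and in 34.5% of all promoters. A GC box (GGGCGG or its complement) was present in 4 of the 8 and in 32.9% of all promoters. Sites for AP-1 (TGANTCA) and ETS factors (CCGGAA), which act at the end of the ERK cascade, were present in 0 of the 8, while 6.87% and 12.2% of all promoters held them. Motifs were searched on both strands and could overlap each other. A match is a run of letters and not a shown binding site, and its absence holds for this window only.

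Levels of the members were set side by side as CPM (the counts scaled to a common library total) per kilobase of exon, or CPM per kb, after scaling of the library totals with TMM factors. RNA was captured with exome probes, so levels also depend on how well each gene's probes work. In whole tumors, fewer cells of a type and less RNA per cell cannot be told apart. In control tumors Pcdh7 made up 69.0% ± 5.15 (SD, n = 3) of the summed level of the 10 genes. Pcdh1 made up 11.9% ± 4.82, Pcdh19 9.17% ± 2.24 and Pcdh9 7.26% ± 4.22, and the ranges of these 3 overlapped. Pcdh17 with 1.31% ± 0.699 and Pcdh12 with 1.04% ± 0.682 followed, also with overlapping ranges.

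The summed level of the group was 51.6 ± 6.74 CPM per kb in control and 50.3 ± 4.49 in cediranib treated tumors. It was 111 ± 13.5 in trametinib treated and 117 ± 28.6 in combination treated tumors (SD, n = 3 each). The 6 tumors that received trametinib lay between 95.9 and 150 CPM per kb and the 6 without it between 45.1 and 58.5, so these ranges did not overlap. Pcdh19 held 43.1% ± 3.04 of the sum in trametinib treated and 38.3% ± 10.9 in combination treated tumors, against 12.9% ± 6.71 in cediranib treated ones. The share of Pcdh7 was 45.9% ± 3.32 with trametinib and 46.0% ± 9.50 with the combination. Its own counts did not fall, so the lower share goes with the larger sum. As this sum contains Pcdh19, which was chosen for its rise, it was not tested.

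**Figure D1:**
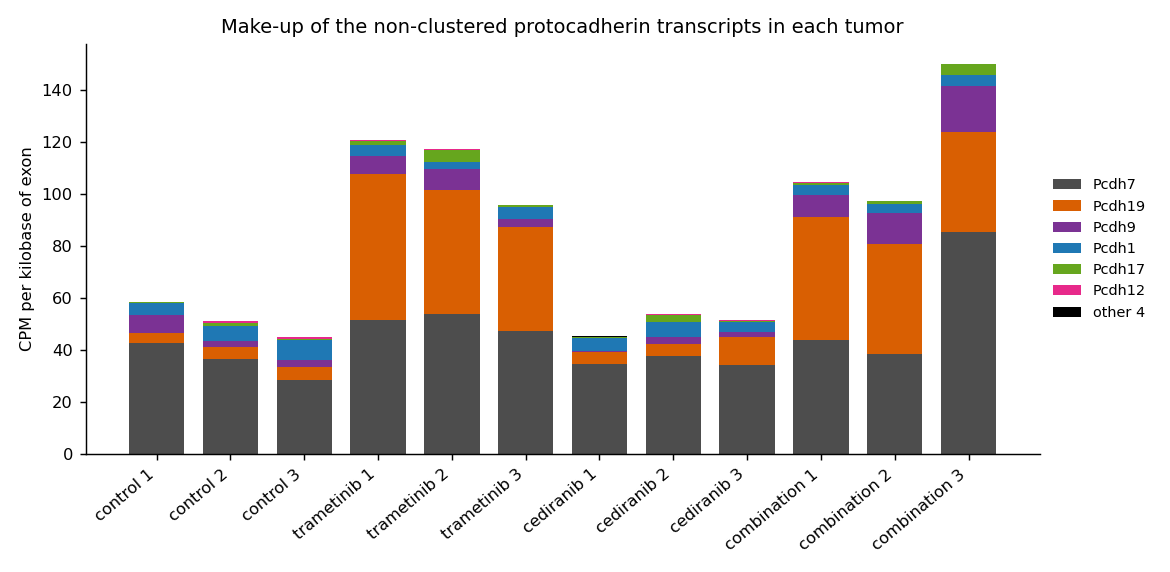
Stacked bars show, for each of the 12 tumors, the level of each protocadherin in CPM per kilobase of exon, with the 4 genes that did not pass the filter drawn together as 1 black segment that is almost too thin to see. The orange Pcdh19 segment is a small part of the bars of control and cediranib treated tumors and about as tall as the gray Pcdh7 segment in trametinib treated tumors.

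Pcdh19 was highest in the 6 tumors that received trametinib. The control tumors had 42.2, 49.5 and 53.6 CPM (TMM-scaled, not divided by length), and the trametinib treated tumors 589, 503 and 418 CPM. The cediranib treated tumors had 45.5, 48.2 and 111 CPM, and the combination treated tumors 499, 443 and 404 CPM. The lowest tumor with trametinib thus stood well above the highest without it, which was the third cediranib treated tumor. Behind these CPM lay 455 to 6484 counts per library. The log2 fold change of trametinib against control was 3.38 (SE 0.31), a description that ranks 47th of 12897 genes from the top.

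In the combination the level of Pcdh19 was 6.56 times that with cediranib, a log2 fold change of 2.71 (SE 0.30, 95% interval 2.06 to 3.37). This too is a description, as the tumors of both groups were in view when the gene was chosen. Without the third cediranib treated tumor the log2 fold change was 3.27. Compared to control the combination gave 3.21 (SE 0.31), with the same control tumors as the trametinib comparison. Combination and trametinib treated tumors differed by -0.17 (95% interval -0.78 to 0.45), which is within the spread between tumors.

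With cediranib alone the log2 fold change of Pcdh19 against control was 0.50 (SE 0.29), and it was -0.06 without the third cediranib treated tumor, so 1 tumor set its direction. In that tumor the mean log2 CPM of 19 genes induced by ERK signaling was 5.39, close to the 5.21 and 5.27 of the other two cediranib treated tumors and above the 2.85 to 4.09 of the 6 tumors with trametinib. The interaction, which asks whether trametinib changes Pcdh19 by a different amount when cediranib is present, was -0.66 (95% interval -1.54 to 0.21). A lincRNA on the opposite strand, Gm26851, shares 57 exon bases with Pcdh19 and had 0 or 1 counts per library.

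**Figure D2:**
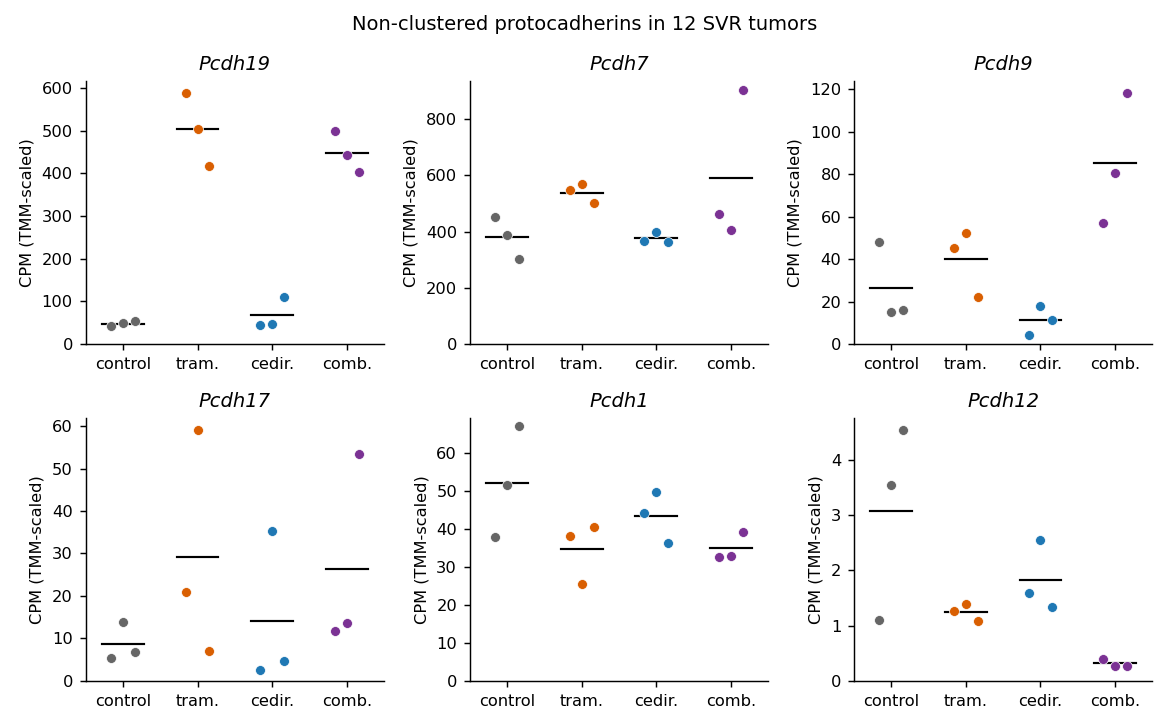
Each panel shows 1 of the 6 protocadherins that passed the filter, with a point for each tumor, a line for the mean of 3 tumors and the level in TMM-scaled CPM from 0 on the vertical axis. Pcdh19 separates the tumors by trametinib, Pcdh9 is highest with the combination, Pcdh12 is lowest with the combination, and in Pcdh17 a single tumor stands high in each of the trametinib, cediranib and combination groups.

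For trametinib against control 1 of the 6 members tested was called (FDR under 0.05 with a log2 fold change of 1.5 or more in size), beside 2.4% of all 12897 genes. This was Pcdh19, which the same comparison had chosen, so its call is no test, and none of its relatives was called. The log2 fold changes of its relatives were 1.75 for Pcdh17, 0.58 for Pcdh9, 0.51 for Pcdh7, -0.58 for Pcdh1 and -1.28 for Pcdh12, and the median of all genes was 0.01. Tumors of the 2 groups did not overlap in 2 of the 6 members, Pcdh19 and Pcdh7, beside 25.8% of all genes. For the combination against cediranib 3 of the 6 members were called, beside 2.45% of all genes. Pcdh19, the chosen gene, was among them and its call is no test, so the relatives called were Pcdh9 and Pcdh12. Pcdh9 rose, where 1.29% of all genes were called higher. Pcdh12 fell, where 1.16% of all genes were called lower. Tumors of the 2 groups did not overlap in these 3 and in Pcdh7, 4 of the 6 members, beside 28.4% of all genes.

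Pcdh9, a long gene with roles in neuronal circuits, was the only relative of the 6 members tested called higher in the combination than in cediranib treated tumors. Its level was 57.0, 80.5 and 118 CPM in the combination and 4.30, 18.2 and 11.5 CPM in cediranib treated tumors, without overlap. Control tumors had 48.0, 15.1 and 16.3 CPM and trametinib treated tumors 45.1, 52.6 and 22.0 CPM. The first control tumor lay among the trametinib treated ones, so those 2 groups overlapped.

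Pcdh9 rose 7.52-fold in the combination compared to cediranib, a log2 fold change of 2.91 (SE 0.57, 95% interval 1.66 to 4.16, FDR = 0.0121, quasi-likelihood test of edgeR, Benjamini-Hochberg). The call held without each of the 12 libraries in turn, with log2 fold changes from 2.52 to 3.43. With the epidermal score of the tumors as a covariate the value was 3.05 and the FDR 0.0514 (edgeR), and the call was lost. Over all genes the calls of this comparison went from 316 to 238 with this covariate. Of the 29 epidermis markers, the summed CPM was 384 to 602 in the combination, 86.4 to 338 in cediranib treated, 58.2 to 109 in control and 48.1 to 77.9 in trametinib treated tumors. Up to 19 of these markers were at 0 in a trametinib treated tumor, and at most 1 in the combination.

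Against control the change of Pcdh9 with the combination was 1.68 (SE 0.54, FDR = 0.0703, edgeR) and was not called. It was called without the first control tumor, at 2.44 with an FDR of 0.0205 (edgeR), and also by the likelihood ratio test of edgeR and by DESeq2. With trametinib alone the log2 fold change was 0.58 (95% interval -0.58 to 1.75). It ran from 0.30 without the second control tumor to 1.33 without the first, and was not called. With cediranib alone it was -1.23 (SE 0.55, FDR = 0.999, edgeR). The interaction of the drugs was 2.33 (95% interval 0.65 to 4.0, FDR = 0.654, edgeR), so a different response of Pcdh9 to trametinib in the presence of cediranib was not called.

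Pcdh12 (ENSMUSG00000024440), the endothelial member, moved in the opposite direction. It had 0.404, 0.272 and 0.278 CPM in the combination and 1.6, 2.55 and 1.34 CPM in cediranib treated tumors. Control tumors had 1.11, 3.55 and 4.55 CPM and trametinib treated tumors 1.27, 1.40 and 1.09 CPM. The 3 combination treated tumors were the lowest of all 12. These levels rest on few reads, with 4, 3 and 3 counts in the combination, and a count of 3 corresponds to 0.251 to 0.349 CPM in a library.

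The log2 fold change of Pcdh12 in the combination compared to cediranib was -2.49 (SE 0.56, 95% interval -3.72 to -1.26, FDR = 0.0223, edgeR). From the summed counts, 10 in the combination and 57 with cediranib, the level was 5.82-fold lower with a counting interval of 2.95 to 12.8. The call was lost in 5 of the 12 fits that left out a library, where the FDR was at most 0.0787 (edgeR), and with the epidermal score, where the log2 fold change was -1.83 and the FDR 0.0866 (edgeR). The 5 libraries were the first and second of the cediranib group and all 3 of the combination.

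Compared to control Pcdh12 fell by 3.22 on the log2 scale with the combination (SE 0.56, FDR = 0.00636, edgeR). In this comparison 2 of the 6 members were called, the chosen Pcdh19 and Pcdh12, beside 3.61% of all genes. The call for Pcdh12 held in 12 of the 12 fits without a library. With the epidermal score it was lost, at a log2 fold change of -1.85 and an FDR of 0.378 (edgeR), and the calls over all genes went from 466 to 54. Trametinib alone gave -1.28 (95% interval -2.32 to -0.24), and cediranib alone -0.73 (SE 0.46, FDR = 0.999, edgeR).

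The endothelium markers of the tumors were low in the same groups. The summed CPM of 16 markers was 261 to 544 in control, 164 to 418 in cediranib treated, 120 to 181 in trametinib treated and 83.3 to 148 in combination treated tumors. Of the 13 markers tested, 4 fell in the combination compared to cediranib, among them Pecam1, Tie1 and Cdh5, and 0 rose. At most 2 of the 16 markers were at 0 in a tumor. In each of the 4 groups the tumor lowest in Pcdh12 was also the one with the lowest endothelium sum, while the highest tumors matched in 3 groups. With the fibroblast list both the highest and the lowest tumors of Pcdh12 matched in 4 of the 4 groups. These matches were noticed after the values were seen, when the highest and lowest tumors of 5 members were set beside 9 marker lists. SVR cells are themselves of endothelial origin, and the part of these cells in the level of Pcdh12 was not tested.

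**Figure D3:**
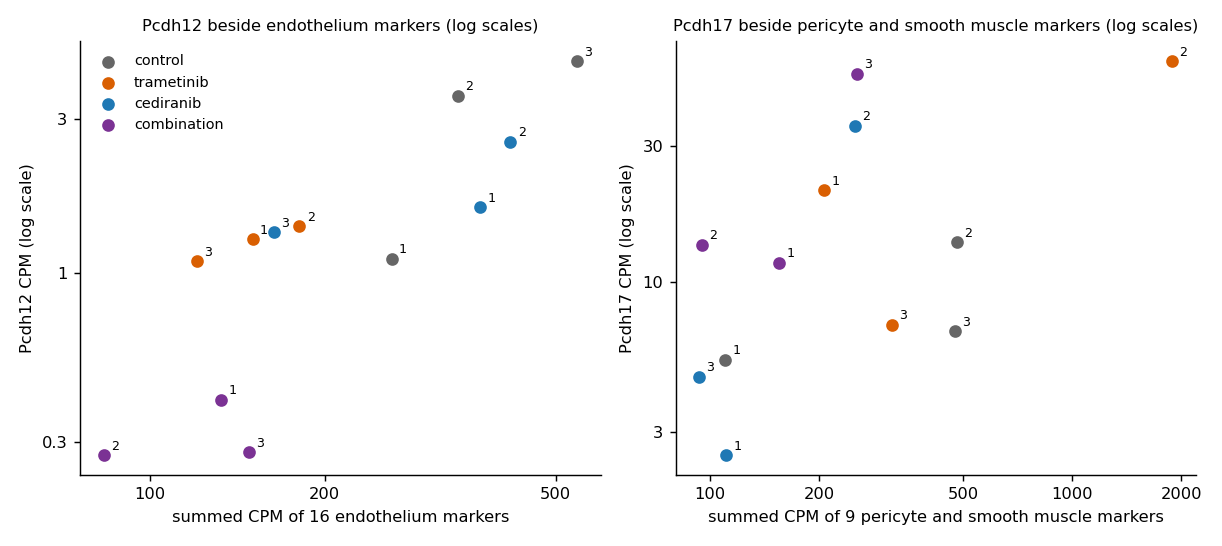
Each point is 1 tumor, numbered by replicate and colored by treatment, with the level of Pcdh12 (left) or Pcdh17 (right) in CPM on the vertical axis against the summed CPM of a marker list, all on log scales. The combination treated tumors lie at the bottom left of the Pcdh12 panel, and in the Pcdh17 panel the second trametinib treated tumor stands at the top right.

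Pcdh17, which takes part in synapse assembly and recruits the WAVE complex, varied widely between tumors of the same group. Control tumors had 5.37, 13.8 and 6.77 CPM and trametinib treated tumors 21, 59.1 and 7.12 CPM. Cediranib treated tumors had 2.50, 35.2 and 4.69 CPM and combination treated tumors 11.7, 13.5 and 53.5 CPM. All 4 groups overlapped, and the highest tumor had 23.7 times the level of the lowest. The log2 fold change was 1.75 for trametinib against control (95% interval -0.39 to 3.88) and 0.89 for the combination against cediranib (95% interval -1.18 to 2.96, FDR = 0.622, edgeR). The latter was -0.16 without the third combination treated tumor and 2.86 without the second cediranib treated one, and neither was called. The former was 0.70 without the second trametinib treated tumor and 2.25 without the second control tumor, also not called. It was called only in the fit without the filter on low counts.

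In each of the 4 groups the tumor highest in Pcdh17 was also the highest in the pericyte and smooth muscle list, while the lowest tumors matched in 1 group. Among the 45 pairs of a member and a list, the highest tumors matched in all groups for 3, the others being Pcdh12 with the fibroblast and Pcdh1 with the adipocyte list. Its 9 genes summed to 482 CPM in the second control tumor, 1892 in the second trametinib treated, 251 in the second cediranib treated and 254 in the third combination treated tumor. Group ranges were 110 to 482 CPM in control, 207 to 1892 with trametinib, 93.5 to 251 with cediranib and 95 to 254 with the combination, with at most 1 of the 9 genes at 0. Their part in the level of Pcdh17 was not tested.

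Pcdh7, a member whose cytoplasmic tail binds protein phosphatase 1, had the highest mean level per kilobase in each group. Pcdh19 stood above it in the first trametinib treated and the first and second combination treated tumors. Control tumors had 451, 387 and 302 CPM and trametinib treated tumors 547, 569 and 502 CPM. Cediranib treated tumors had 368, 401 and 365 CPM and combination treated tumors 463, 406 and 906 CPM. Both groups with trametinib lay above their counterparts without overlap. The changes were small, with 0.51 (95% interval -0.04 to 1.05) for trametinib and 0.65 (95% interval 0.10 to 1.2, FDR = 0.145, edgeR) for the combination against cediranib. Without the third combination treated tumor the latter was 0.21.

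The count of Pcdh7 is uncertain in 1 respect. The transcript 4932441J04Rik on the opposite strand shares 2235 exon bases with it and had 434 to 1613 counts, the most in the third combination treated tumor, which was also the highest in Pcdh7. Its log2 fold changes were 0.54 for trametinib and 0.75 for the combination against cediranib (FDR = 0.104, edgeR). Whether counting used the strand is not given in the sources, so reads of this pair cannot be told apart with certainty.

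Pcdh1 (ENSMUSG00000051375), an adhesion protein of airway epithelium and other epithelia, was not called in any of the comparisons. It had 37.8, 51.7 and 67.3 CPM in control, 38.2, 25.6 and 40.7 with trametinib, 44.2, 49.7 and 36.4 with cediranib and 32.7, 33.0 and 39.4 with the combination. The groups overlapped in every one of these comparisons. Its log2 fold change was -0.58 with trametinib (95% interval -1.07 to -0.09) and -0.31 for the combination against cediranib (95% interval -0.80 to 0.18, FDR = 0.446, edgeR).

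**Figure D4:**
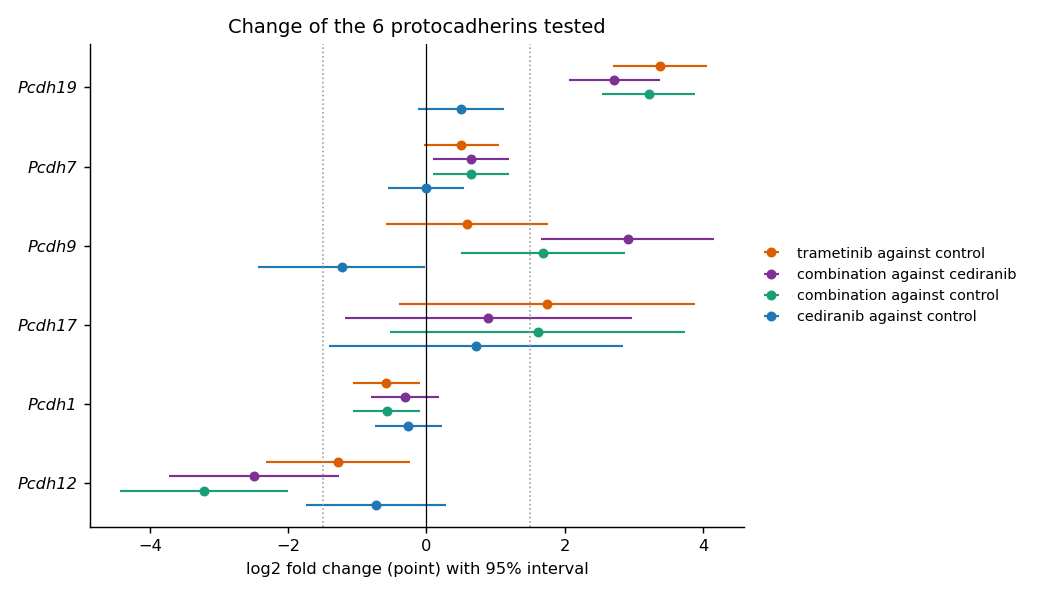
Points are log2 fold changes and bars their 95% intervals for the 6 protocadherins tested, in 4 comparisons marked by color, with dotted lines at the minimum of 1.5 in either direction. In the combination against cediranib, Pcdh19 at 2.71 and Pcdh9 at 2.91 lie to the right of the dotted line and Pcdh12 at -2.49 to the left.

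The intervals of the combination against cediranib thus overlapped between Pcdh19 and Pcdh9, and also between Pcdh19 and Pcdh17, whose interval was wide. Those of Pcdh7, Pcdh1 and Pcdh12 lay below that of Pcdh19. Differences between genes were not tested. For cediranib against control 0 of the 6 members were called, as were 0% of all genes, while 557 genes had an unadjusted p under 0.05 (edgeR). The likelihood ratio test and DESeq2 also called 0 members, beside 14 and 9 of all genes. For the combination against trametinib 0 members were called beside 0.675% of all genes, the largest change being -1.94 for Pcdh12 (95% interval -3.19 to -0.68, FDR = 0.116, edgeR). The interaction called 0 members and 0% of all genes.

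The 4 members that did not pass the filter were near the limit of detection. Pcdh10, which binds the WAVE complex and is silenced in several cancers, had 32 counts in 6 libraries. Of these, 24 were in the cediranib group, with 13, 9 and 2 counts, and 1 was in the combination. The first trametinib treated tumor had 5 and the third control tumor 2. Without the filter on low counts Pcdh10 was called lower in the combination compared to cediranib, at -4.16 with an FDR of 0.0293 (edgeR). This call rests on those few counts, and the calls over all genes went from 316 to 637 in that fit. Pcdh18 had 44 counts in 10 libraries and at most 8 in a library. Pcdh8, induced by activity at synapses, had 6 counts, all in the first and second combination treated tumors. Pcdh20 had 6 counts in 5 libraries. With trametinib their summed counts were 0 for Pcdh8, 5 for Pcdh10, 10 for Pcdh18 and 3 for Pcdh20.

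The clustered protocadherins showed no called change. Of 60 genes (the alpha, beta and gamma clusters with Pcdh11x and Pcdh15) 34 were tested, and 0 were called in each comparison. Their median log2 fold change was 0.12 for trametinib and 0.13 for the combination against cediranib, where the medians of all genes were 0.01 and 0.00. Of the 34, 22 were gamma genes, whose transcripts share constant exons, and their log2 fold changes were nearly equal, from 0.08 to 0.13 and from 0.08 to 0.14, so they are not separate measurements. The 12 beta genes varied separately, from -0.81 to 1.06 with a median of -0.29 for trametinib and from -2.19 to 1.11 with a median of -0.37 for the combination against cediranib. An unadjusted p under 0.05 was reached by 0 and 2 of the 34 (edgeR), beside 20.7% and 23.1% of all genes. By the likelihood ratio test and by DESeq2 Pcdhb5 was called lower in the combination, against cediranib and against trametinib. It lies outside the genes to be named by rule and was picked after its values were seen.

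Among 19 classical cadherins 6 were tested. Cdh5 (VE-cadherin), the adhesion protein of endothelial junctions, fell with trametinib, with a log2 fold change of -1.99 (FDR = 0.0423, edgeR). In the combination compared to cediranib it fell by 1.89 (FDR = 0.0474, edgeR). Cdh11, a cadherin of mesenchymal cells, fell in the combination compared to cediranib, by 1.81 (SE 0.39, FDR = 0.0169, edgeR). Both also fell in the combination compared to control. None of the 6 was called higher by the quasi-likelihood test of edgeR. The likelihood ratio test and DESeq2 called Cdh1 and Cdh24 lower with trametinib and higher in the combination compared to trametinib. Both lie outside the genes to be named by rule.

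In 13 further members of the superfamily, 9 of them tested, Fat2 fell with trametinib by 2.36 (SE 0.64, FDR = 0.0486, edgeR). Celsr2, an adhesion receptor of planar cell polarity, rose in the combination compared to control by 4.84 (SE 0.62, FDR = 0.00135, edgeR) and compared to trametinib by 6.06 (FDR = 0.0196, edgeR). Its mean was 13.7 CPM in the combination, 0.458 CPM in control and 0.213 CPM with trametinib. That of Fat2 was 0.550 CPM with trametinib and 2.86 CPM in control. The low means are near the level of 3 counts, so the sizes of these changes are uncertain. Both genes are also active in epithelia, and the epidermis markers above were highest in the combination. Fat2 was not called in the combination compared to control, at -0.28. The part of epidermis in these levels was not tested.

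Genes of proteins that act below the protocadherins mostly passed the filter on low counts but were not called. Of the WAVE complex, which drives actin branching, 10 of 11 genes were tested and 0 were called in each comparison by edgeR's quasi-likelihood or likelihood ratio test or by DESeq2. An unadjusted p under 0.05 was reached by 1 with trametinib and 2 with the combination against cediranib (edgeR), beside 20.7% and 23.1% of all genes. The same 3 tests called 0 of 9 genes for other partners and for the proteases that shed cadherins, with 4 and 2 at an unadjusted p under 0.05 against the same shares. The medians of both lists lay between -0.07 and 0.02.

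ERK output was lower in the groups in which Pcdh19 was higher. Of 20 genes induced by ERK signaling 19 were tested, and 10 fell with trametinib, with a median log2 fold change of -2.19. In the combination compared to cediranib 10 fell, with a median of -1.61, and 0 rose. Egr1, an immediate early transcription factor, fell by 4.49 with trametinib (SE 0.23, FDR = 2.15e-06, edgeR) and fell by 2.92 in the combination compared to cediranib (SE 0.21, FDR = 0.00011, edgeR). Dusp6, a phosphatase that acts on ERK, fell by 3.70 and 1.85 in these comparisons. In the combination compared to trametinib Dusp6 and Etv5 were higher, by 1.79 and 1.58.

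The genes whose profile over the 12 libraries was most like that of Pcdh19 came from outside the family. The measure was the Euclidean distance between centered log2 CPM, and the closest were Lgr4 (1.51), Dlx3 (1.67), Sybu (1.86), Asic1 (1.91) and Has1 (2.20). Lgr4, a receptor for R-spondins, had 10.2 to 15.4 CPM in control, 84.0 to 88.9 with trametinib, 6.62 to 18.6 with cediranib and 47.8 to 77.7 with the combination. Dlx3, a homeobox factor, had 1.31 to 4.0, 28.8 to 32.7, 2.36 to 10.5 and 28 to 42.9 CPM in the same order. The third cediranib treated tumor was the highest of its group in Lgr4, Dlx3, Sybu, Asic1 and Has1 as it was in Pcdh19, a likeness that the measure itself favors. Sybu was at 0 to 0.203 CPM in control and ranked 117th when the prior count was 0.5 instead of 2. Among the relatives Pcdh9 ranked 358th of the 12897 genes in likeness, Pcdh7 1075th, Pcdh17 2962nd, Pcdh1 10645th and Pcdh12 12564th.

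Other marker lists varied between tumors. The summed CPM of 11 fibroblast genes ran from 1585 to 36878. Skeletal muscle markers reached 16436 CPM in a control and 23510 CPM in a trametinib treated tumor and as little as 5.25 CPM elsewhere. Macrophage markers summed to 174 to 683, neuron markers to 225 to 1031 with up to 4 of the 6 at 0, Schwann cell markers to 5.86 to 16.3 and adipocyte markers to 0.670 to 14.7 CPM. The part of these cells in the levels of the protocadherins was not tested.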

How the data were processed

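RNA of 12 SVR tumors was captured with exome probes, sequenced and, per the labels, grouped by title and treatment. The authors chose this capture because RNA degradation was relatively frequent in the tumors. The authors aligned paired-end reads of 50 bases to GRCm38 with STAR 2.7.1a and deposited raw counts per gene from featureCounts 1.6.0, after bcl2fastq 1.8.4. For the annotation release, the use of strand and reads with several positions nothing is given in the sources used here. Gene lengths in the table equaled the summed exons of GENCODE M21 for 97.3% of the genes found there. Every column of counts belonged to 1 tumor. Libraries held 9478865 to 11666094 counts, no pair was identical, and 3 counts, the limit that a count of 0 allows, corresponded to 0.251 to 0.349 CPM, for counting error only.

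After scaling with TMM factors (0.908 to 1.10), the quasi-likelihood model of edgeR 4.0.16 (R 4.3.3) was fitted to all 12 libraries at once, following filterByExpr (minimum count 10, minimum total 15). Calls needed an FDR below 0.05, adjusted by Benjamini-Hochberg over the 12897 genes tested, with a log2 fold change of 1.5 or more in size. Each standard error was the size of the log2 fold change over the square root of F, and 95% intervals used the t distribution with the degrees of freedom of the fit. p-values measure the spread between these tumors. The method was tested on simulated data. Alternatives were RLE size factors, library totals only, no filter, the likelihood ratio test of edgeR, DESeq2 1.42.0, the compared groups alone, the replicate number as a block, an epidermal score (mean log2 CPM of 22 tested epidermis markers), no fold minimum and each library left out.

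The members and the lists (other protocadherins, classical cadherins, other cadherin superfamily, WAVE complex, other partners and proteases, ERK output and 9 marker lists) were chosen with earlier results of these data known. All members were reported, with the called genes of a list, at most 5 per list and comparison by smallest p, and the 5 genes closest to Pcdh19. Of these, the text gives values for a few. Promoters and their sequences are from RefSeq (GRCm38.p6) and overlaps from GENCODE M21. Protein sequences were not used here.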

Additional observations from a re-analysis of the deposited data

How the results depend on the processing

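Without the filter on low counts, 2 members were called for trametinib against control, Pcdh19 and Pcdh17. In that fit 4 were called for the combination against cediranib (with Pcdh10) and 4 for the combination against control. For the combination against trametinib 1 was called (Pcdh12), and 1 for the interaction (Pcdh9). Calls over all genes in these 5 comparisons went from 310 to 687, 316 to 637, 466 to 1129, 87 to 773 and 0 to 261. Standard errors of Pcdh17 were smaller in that fit, and the cause was not tested. With the epidermal score as covariate, 2 members were called for trametinib against control, 1 for the combination against cediranib and 1 for the combination against control, while calls over all genes became 348, 238 and 54, and 0 for the combination against trametinib. When each library was left out in turn, the count was 1 to 2 for trametinib against control and 2 to 3 for the combination against cediranib. For the combination it was 2 to 3 against control and 0 to 1 against trametinib. For cediranib against control and for the interaction it was 0. Calls over all genes in these fits, in the same order, ran from 233 to 333, 188 to 314, 237 to 584, 0 to 211, 0 to 7 and 0 to 1. Without the first control tumor Pcdh12 was called lower for trametinib against control and for the combination against trametinib, and Pcdh9 higher for the combination against control.

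Values that were not called changed sign in places. For Pcdh17 the combination against trametinib gave 0.065 with library totals only and 3.92 with the epidermal score, and its interaction gave 2.43 with the epidermal score. The cause was not tested. Leaving out a library moved Pcdh17 between -0.16 and 2.86 for the combination against cediranib, between -1.26 and 1.22 for cediranib against control, between -1.19 and 0.90 for the combination against trametinib and between -1.89 and 1.12 for the interaction. Pcdh7 moved between -0.15 and 0.12 for cediranib against control, between -0.31 and 0.36 for the combination against trametinib and between -0.29 and 0.38 for the interaction. Pcdh19 moved between -0.059 and 0.72 for cediranib against control, and Pcdh1 between -0.18 and 0.14 for the combination against trametinib.

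Replicate numbers of the labels name the tumors only. Deviations of same-numbered tumors correlated by -0.22 to 0.36, with 3 of 18 pairs over 0.1. With the replicate number as a block the counts of called members were as without it, 1 for trametinib against control, 3 for the combination against cediranib, 2 for the combination against control and 0 in the other comparisons. The block changed the sign of Pcdh17 for the combination against trametinib, to 0.25, and for the interaction, to 0.0044. The low counts of Pcdh12 and the 3 tumors per group limit the precision of its changes.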
